A study of Homo sapiens with 4 samples.

Results

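The genes described here are 10 genes of the ATF4 stress response, out of 43296 gene names in the count table: ATF4, DDIT3, TRIB3, CHAC1, ASNS, PSAT1, PHGDH, SLC7A11, VLDLR and DDIT4. They were taken by name. For each one, every feature whose name is that gene alone was summed in each library and given as counts per 1000000 gene plus transposable element counts of that library (CPM). All 10 were found, and each had at least 1 count in every library.

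Human H1299 cells, a line of non-small cell lung cancer, and human HCT116 cells, a line of colorectal cancer, were profiled by 5′ single-cell RNA sequencing, which reads polyadenylated RNA from its start. Cells at passage 5 to 10 received the solvent DMSO, or DAC (decitabine, an inhibitor of DNA methyltransferases) at 500 nM over 72 h together with SB939 (an inhibitor of histone deacetylases) at 500 nM over 18 h. This combination is called DAC+SB, compound medium was replaced at intervals of 24 h, and nothing else is stated to differ between the groups. Each of the 4 groups was 1 library of 1 line, so no difference below has a replicate check. Within a line no test was possible, a fit over both lines was not run, and every 95% interval covers counting error alone.

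The libraries held 3578 to 4327 cells and 38927267 to 64524196 counts. HCT116 DAC+SB was the shallowest, with a median of 8449 counts per cell against 15784.5 to 17369.5 in the other libraries, and had the highest median share of mitochondrially encoded counts, 18.6% against 8.33% to 15.8%. From 18 to 30 cell barcodes were shared by any pair of libraries. With DMSO, a list of 10 H1299 markers summed to 3091 CPM in H1299 and 249 CPM in HCT116, and a list of 10 HCT116 markers to 727 CPM in HCT116 and 353 CPM in H1299. Few genes carried these sums: VIM held 147273 of the 199470 counts of the H1299 list in H1299 DMSO, where NNMT (0.108 CPM) and SPARC (0.248 CPM) were nearly absent. Of the HCT116 list, KRT18 was higher in H1299 DMSO (255 against 229 CPM), and LGALS4 (0.0798 CPM) and CDX1 (0 CPM) were nearly absent from HCT116 DMSO. With DAC+SB the H1299 list remained higher in H1299 (1760 against 415 CPM), but the HCT116 list was also higher in H1299 (1060 against 922 CPM). The keratin genes KRT18 (676 against 325 CPM) and KRT8 (307 against 229 CPM) were higher in H1299, as were CLDN3 and LGALS4. KRT19 went from 3 counts with DMSO to 2634 in H1299, yet at 42.2 against 287 CPM it stayed higher in HCT116. So did EPCAM (4.47 against 45.2 CPM), CDH1, ELF3, CLDN4 and CDX1.

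ATF4 is the transcription factor of the integrated stress response. When amino acids run short, when unfolded protein collects in the endoplasmic reticulum (ER), or under other stresses, kinases phosphorylate the initiation factor eIF2, most protein synthesis slows, and the ATF4 messenger is translated more efficiently. ATF4 protein then switches on genes for amino acid synthesis and import, and under long stress also DDIT3 (CHOP). Because much of this control acts on translation, the ATF4 messenger measured here is not a measure of ATF4 protein.

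ATF4 often binds, together with a C/EBP partner, a composite element (CARE) of the letters TGATGNAA. The RefSeq promoter table (GRCh38.p14) held 14 start sites for 9 of the 10 genes, all but SLC7A11. Among the 250 bases before each start, read on both strands, 2 start sites held these letters, 1 of ASNS and 1 of CHAC1. The 2 stretches are shown because they hold the letters of the element ATF4 is known to bind, with the matching letters in capitals and the strand of the gene read 5′ to 3′.
ASNS: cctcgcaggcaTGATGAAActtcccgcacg
CHAC1: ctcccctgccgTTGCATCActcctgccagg
The ASNS stretch is chr7:97872458-97872487 on the minus strand, with the match at -68 to -61 from the start. The CHAC1 stretch is chr15:40953251-40953280 on the plus strand, and there the match, at -209 to -202, is the element read on the opposite strand. Both stretches also lie inside exons of transcripts of the same gene that start further upstream (GENCODE release 29). Of all 35116 promoters in the table, 3.14% held the letters. The ER stress element (ERSE), searched in the same way, was found at none of the 14 start sites and in 0.0740% of all promoters. A match describes letters, not binding, and the absence of one says nothing about these factors.

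With DAC+SB, 5 of the 10 genes were at least 2-fold lower in HCT116, while in H1299 differences had both signs, from 2.33-fold lower for SLC7A11 and 1.98-fold lower for ATF4 to 1.83-fold higher for DDIT3. Taking genes that reached 100 counts in 1 or both libraries of a line, and calling a difference at 2-fold or more, 5 of 9 genes were lower in treated HCT116 and 0 were higher. The 5 were ATF4, TRIB3, PSAT1, SLC7A11 and DDIT4, and VLDLR was below the minimum. Over all 13539 genes counted this way in HCT116, 20.0% were at least 2-fold lower and 16.2% higher, or 2706 and 2192 genes, which became 1865 and 2611 after centring on the median of all genes. In H1299, 1 of 10 genes, SLC7A11, was at least 2-fold lower and 0 were higher, beside 7.34% lower and 18.3% higher of 14610 genes. The median log2 ratio (DAC+SB over DMSO) of the listed genes was -1.32 in HCT116, where the median of all genes was -0.23, and -0.14 in H1299, where it was -0.07. With names that join a listed gene with another gene added, the listed genes' median was again -1.32 in HCT116 but 0.01 in H1299, so its sign in H1299 depended on these names. Summed under their own names, the 10 genes went from 492 to 207 CPM in HCT116 and from 237 to 163 CPM in H1299. ATF4 held the most counts in every library, 13764 of 30824 in HCT116 DMSO and 8476 of 15295 in H1299 DMSO. Counts under names that join DDIT3 or ASNS with another gene are not in these sums.

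**Figure D1:**
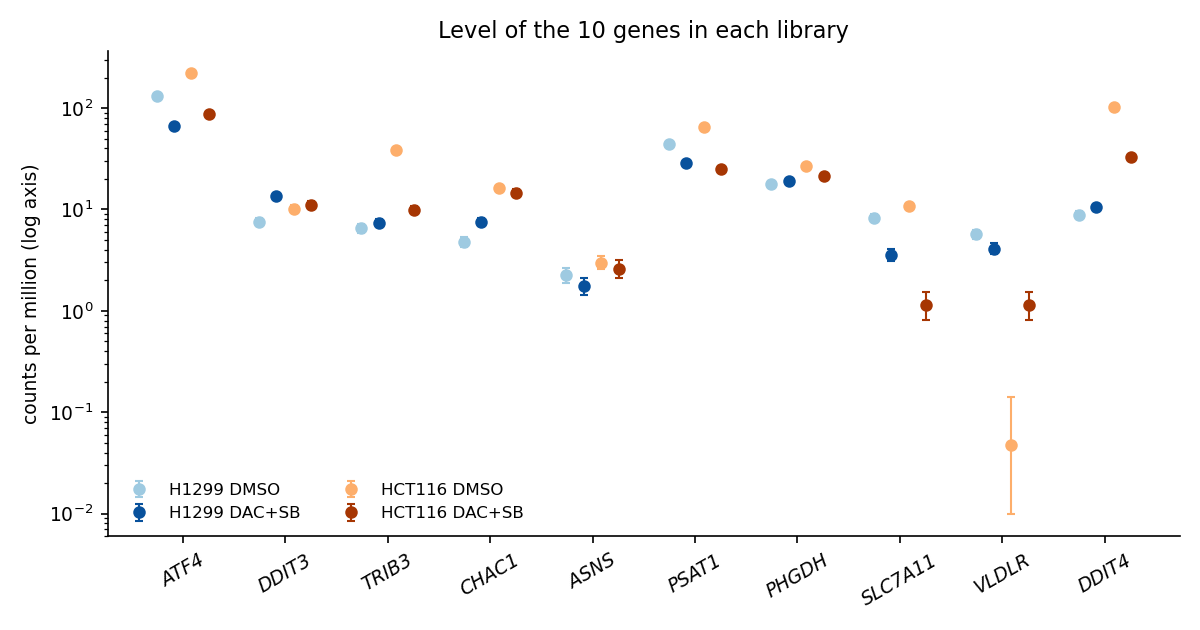
Level of each of the 10 genes in the 4 libraries, in CPM on a log axis; bars are exact Poisson 95% intervals, and the 4 points of a gene are to be compared with each other, not with another gene. In HCT116 the treated point lies well below the DMSO point for ATF4, TRIB3, PSAT1, SLC7A11 and DDIT4, whereas VLDLR lies at 0.0479 CPM with DMSO and 1.13 CPM with DAC+SB.

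ATF4 itself (chr22:39519695-39522685, plus strand, GENCODE release 29 on GRCh38, like all gene positions below) was lower with DAC+SB in both lines. In H1299 it had 8476 counts with DMSO and 4150 with DAC+SB, or 131 and 66.5 CPM. In HCT116 it had 13764 and 3426 counts, or 220 and 88.0 CPM. The highest level was thus in HCT116 DMSO, followed by H1299 DMSO, HCT116 DAC+SB and H1299 DAC+SB, and no counting intervals of neighbours in that order overlapped. The log2 ratio was -0.98 (-1.04 to -0.93) in H1299, a 1.98-fold lower level just under the 2-fold rule, and -1.32 (-1.37 to -1.27) in HCT116, 2.50-fold lower. The H1299 log2 ratio exceeded that of HCT116 by 0.34 (0.26 to 0.41).

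DDIT3 (chr12:57516588-57521737, minus strand) encodes CHOP, a transcription factor tied to cell death under lasting ER stress. Features named DDIT3 alone had 482 and 852 counts in H1299 DMSO and DAC+SB, or 7.47 and 13.6 CPM. HCT116 had 640 and 430 counts, or 10.2 and 11.0 CPM. DDIT3 was the only one of the 10 whose log2 ratio over all its own features was above 0 in both lines, 0.87 (0.71 to 1.03) in H1299 but, with an interval that spans 0, 0.11 (-0.07 to 0.29) in HCT116. Most counts at this locus were listed under a name that joins DDIT3 with a clone-named gene, which held 70.9% to 81.4% of the counts of both names. With it, the H1299 level went from 25.7 to 48.7 CPM (log2 ratio 0.92, interval 0.84 to 1.01) and the HCT116 level from 48.4 to 59.5 CPM (0.30, 0.22 to 0.38). Nearly all joined counts lay in numbered features, 1864 of them in a single one in HCT116 DAC+SB, and without these features the log2 ratios were 0.91 in H1299 and 0.11 in HCT116. The 3′ end of DDIT3 overlaps MARS on the other strand, and the sources used here do not state whether counting used strand.

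TRIB3 (chr20:362835-397559, plus strand), a pseudokinase that feeds back on ATF4 and CHOP, was high in 1 library only. It had 421 and 456 counts in H1299 DMSO and DAC+SB, or 6.52 and 7.30 CPM, with a log2 ratio of 0.16 (-0.03 to 0.36). HCT116 had 2426 counts with DMSO and 385 with DAC+SB, or 38.7 and 9.89 CPM, a log2 ratio of -1.97 (-2.13 to -1.81). HCT116 exceeded H1299 5.94-fold with DMSO and 1.35-fold with DAC+SB, the latter 0.932-fold over features without a number. Of the 385 counts in HCT116 DAC+SB, 120 lay in a numbered feature that the other libraries do not list. Without it the log2 ratio was -2.51. This value and the 0.932-fold take counts from HCT116 DAC+SB alone, though an unlisted feature is not a 0.

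CHAC1 (chr15:40952962-40956519, plus strand) encodes an enzyme that degrades glutathione. H1299 had 310 counts with DMSO and 472 with DAC+SB, or 4.80 and 7.56 CPM. HCT116 had 1015 and 566 counts, or 16.2 and 14.5 CPM. Both HCT116 libraries were above both H1299 libraries, and HCT116 exceeded H1299 3.37-fold with DMSO and 1.92-fold with DAC+SB (2.60-fold and 1.29-fold over features without a number). The log2 ratio was 0.65 (0.44 to 0.87) in H1299 and -0.16 (-0.31 to -0.01) in HCT116. Over features without a number the log2 ratios were 0.23 and -0.78, so the size in both lines rested on the numbered feature.

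DDIT4 (chr10:72273920-72276036, plus strand), also called REDD1, restrains the growth kinase complex mTORC1. H1299 had 570 counts with DMSO and 659 with DAC+SB, or 8.83 and 10.6 CPM, a log2 ratio of 0.26 (0.09 to 0.42). HCT116 had 6358 and 1270 counts, or 102 and 32.6 CPM, a log2 ratio of -1.64 (-1.73 to -1.55). DDIT4 had the largest excess of HCT116 over H1299 with DMSO among the 10 genes, 11.5-fold, and the excess was 3.09-fold with DAC+SB. Over features without a number these were 7.77-fold and 1.26-fold. Its log2 ratio in HCT116 was -2.39 over features without a number, whose counts went from 2385 to 282, while the numbered feature went from 3973 to 988.

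**Figure D2:**
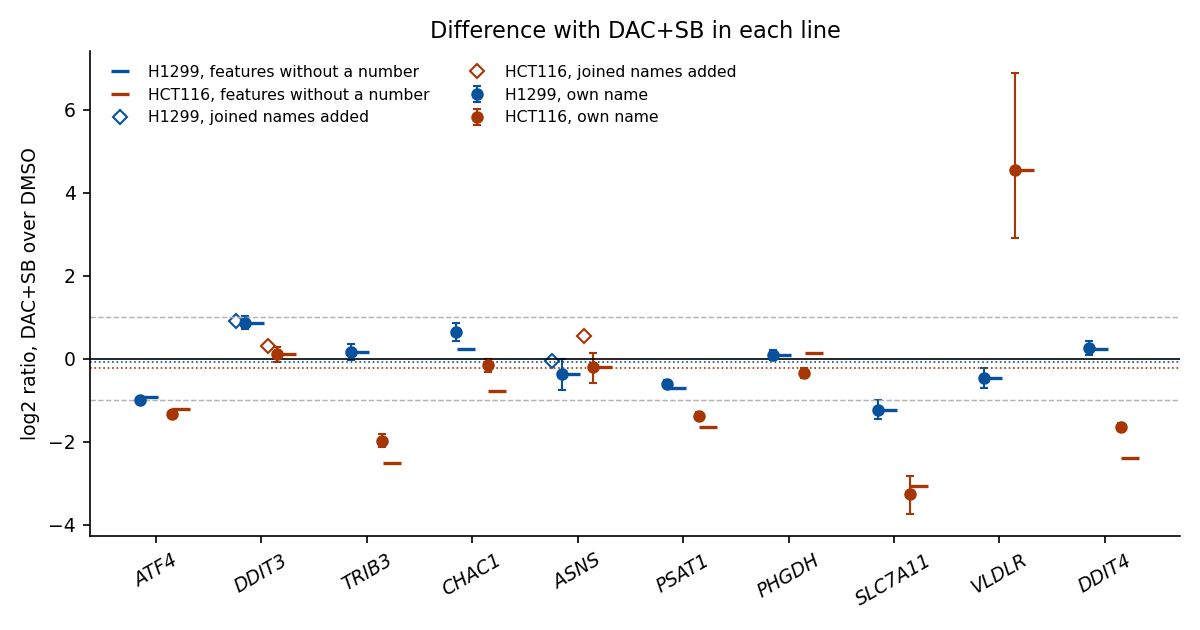
Log2 ratio of DAC+SB over DMSO for each gene in H1299 and HCT116, with exact conditional binomial 95% intervals; diamonds add joined names, short bars use features without a number only, dotted lines mark the median of all genes and dashed lines 2-fold. SLC7A11 has the lowest ratio in both lines (-1.22 and -3.26), and VLDLR in HCT116 (4.56, from 3 and 44 counts) has the widest interval.

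The enzymes of amino acid synthesis did not move together. PSAT1 (chr9:78297143-78330093, plus strand), which makes phosphoserine, had 2833 and 1812 counts in H1299 DMSO and DAC+SB, or 43.9 and 29.0 CPM, and 4074 and 982 counts in HCT116, or 65.0 and 25.2 CPM. Its log2 ratio was -0.60 (-0.68 to -0.51) in H1299 and -1.37 (-1.47 to -1.27) in HCT116, so HCT116 was above H1299 with DMSO and below it with DAC+SB. PHGDH (chr1:119648411-119744226, plus strand), the first enzyme of the same serine pathway, had 1155 and 1188 counts in H1299, or 17.9 and 19.0 CPM, and 1678 and 828 counts in HCT116, or 26.8 and 21.3 CPM. Its log2 ratio was 0.09 (-0.03 to 0.21) in H1299 and -0.33 (-0.45 to -0.21) in HCT116, where it turned to 0.14 over features without a number.

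ASNS (chr7:97852118-97872542, minus strand) encodes asparagine synthetase. Under its own name it had 145 and 109 counts in H1299 DMSO and DAC+SB, or 2.25 and 1.75 CPM. HCT116 had 187 and 101 counts, or 2.99 and 2.59 CPM. These were too few to tell the treatments apart in either line, with log2 ratios of -0.36 (-0.74 to 0.00) and -0.20 (-0.57 to 0.15). A name that joins ASNS with a clone-named gene held 89.8% to 93.9% of the counts at the locus. With it, H1299 went from 29.1 to 28.0 CPM (log2 ratio -0.06, interval -0.15 to 0.04) and HCT116 from 29.2 to 42.7 CPM (0.55, 0.45 to 0.65). Over features without a number, joined names included, the ratios were -0.15 and 0.02.

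SLC7A11 (chr4:138164097-138242349, minus strand), the cystine importer xCT, had the lowest ratio of the 10 genes in each line. H1299 had 536 counts with DMSO and 223 with DAC+SB, or 8.31 and 3.57 CPM. HCT116 had 679 and 44 counts, or 10.8 and 1.13 CPM. The level was 2.33-fold lower in treated H1299, log2 ratio -1.22 (-1.45 to -0.99), and 9.59-fold lower in treated HCT116, -3.26 (-3.74 to -2.82). With DMSO the lines were within 1.30-fold of each other, and with DAC+SB the HCT116 level was 0.316 times that of H1299. Of the 679 counts in HCT116 DMSO, 84 lay in a numbered feature listed in no other library. Leaving it out, which takes counts from HCT116 DMSO alone, gave a ratio of -3.07.

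VLDLR (chr9:2621834-2660053, plus strand), the very low density lipoprotein receptor, was counted mainly in H1299. H1299 had 367 counts with DMSO and 257 with DAC+SB, or 5.69 and 4.12 CPM, a log2 ratio of -0.47 (-0.70 to -0.23). HCT116 had 3 counts with DMSO and 44 with DAC+SB, or 0.0479 and 1.13 CPM, a ratio of 4.56 (2.92 to 6.89) on the log2 scale. Even with DAC+SB the HCT116 level was 0.275 times that of H1299. The 250 bases before its first listed start hold 41 CpG dinucleotides, the sites DNA methyltransferases act on, and 98.3% of promoters in the table hold fewer. The other 8 genes in the table hold from 11 (PHGDH, equal to the median of all promoters) to 33 (TRIB3), and methylation was not measured.

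With DMSO and own names, 9 of the 10 genes were higher in HCT116 than in H1299, though ASNS with its joined name was at 1.00-fold. The share of all genes higher in HCT116 by any amount was not computed, so this count has no background. TRIB3, CHAC1 and DDIT4 were at least 2-fold higher and VLDLR at least 2-fold lower, beside 15.2% higher and 20.5% lower of 13796 genes with enough counts. With DAC+SB, DDIT4 alone of the 10 was at least 2-fold higher in HCT116, against 12.1% of 14875 genes, while SLC7A11 and VLDLR were at least 2-fold lower, against 25.4%. Over features without a number 0 of the 10 were at least 2-fold higher, and no share of all genes was computed for that counting. The difference between the lines in their log2 ratio (H1299 minus HCT116) was 2.13 (1.89 to 2.38) for TRIB3, 2.04 (1.55 to 2.54) for SLC7A11, 1.89 (1.71 to 2.08) for DDIT4, 0.81 (0.56 to 1.06) for CHAC1, 0.77 (0.64 to 0.90) for PSAT1 and 0.76 (0.52 to 1.00) for DDIT3. It was 0.42 (0.25 to 0.59) for PHGDH, but -0.05 (-0.30 to 0.19) over features without a number. It was -5.03 (-6.73 to -3.32) for VLDLR and -0.16 (-0.66 to 0.34) for ASNS under its own name, while ASNS with its joined name gave -0.61 (-0.74 to -0.47) over all features and -0.17 (-0.36 to 0.03), an interval that spans 0, without the numbered ones.

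The lower levels in HCT116 came with the shallower library and its higher mitochondrial share. Cells above 25% mitochondrially encoded counts numbered 1086 in HCT116 DAC+SB and 364 in HCT116 DMSO. Without them the log2 ratios were as large: -1.32 for ATF4, -1.94 for TRIB3, -1.36 for PSAT1, -3.42 for SLC7A11 and -1.76 for DDIT4. Centred on the median of all genes they were -1.09, -1.74, -1.13, -3.03 and -1.41 in the same order, so each stayed at least 2-fold lower. With a call at 1.5-fold instead, 2 of the 10 genes (DDIT3 and CHAC1) were higher and 3 (ATF4, PSAT1 and SLC7A11) lower in H1299, beside 24.9% higher and 21.3% lower of all genes counted, and the HCT116 calls were again 0 and 5, beside 22.7% and 35.2%. At 4-fold, only SLC7A11 in HCT116 was called, beside 9.63% higher and 3.69% lower of HCT116 genes and 11.0% and 0.349% of H1299 genes. In summed counts, fewer cells expressing a gene and less RNA per cell cannot be told apart.

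Genes around these 10 were read from 8 lists. Each count of a list over all features is to be read beside all genes counted in the same way, of which 18.3% were at least 2-fold higher and 7.34% lower in H1299, against 16.2% and 20.0% in HCT116. Over features without a number, 1886 genes were at least 2-fold higher and 1241 lower in H1299, and 1200 and 3035 in HCT116. Shares were not computed for that counting, so the list counts over those features have no share beside them. The median of all genes was not computed for it either, so list medians over those features also have no background. Upstream, of 12 genes for the eIF2 kinases, eIF2B and eIF2 subunits and the eIF2 phosphatase, 0 were at least 2-fold higher in H1299 and 1 was lower, while HCT116 had 1 higher and 4 lower. EIF2AK2 (PKR, the kinase that responds to double-stranded RNA) was the lowest in both lines, going from 68.2 to 27.1 CPM in H1299 and from 69.2 to 10.2 CPM in HCT116, log2 ratios of -1.33 and -2.77. EIF2B2, a subunit of the exchange factor that recharges eIF2, was the highest in both, at 0.15 and 1.01, but at -0.07 and 0.50 over features without a number, where 0 of the list were at least 2-fold higher. The list's median was -0.12 in H1299 and 0.22 in HCT116, and the latter was -0.13 over those features.

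Among 6 of 7 transcription factors around ATF4 with enough counts, ATF3, a stress-induced repressor and partner of ATF4, was the only one at least 2-fold higher in both lines. It went from 6.54 to 23.7 CPM in H1299 and from 30.9 to 133 CPM in HCT116, log2 ratios of 1.86 and 2.10. ATF5 was the lowest in H1299 (-0.97) and JDP2 in HCT116 (-1.34). In H1299, 2 of the list were at least 2-fold higher and 0 lower. In HCT116 it was 1 in each direction, with medians of 0.26 and -0.59. Without numbered features, 1 was lower in H1299 and 3 in HCT116.

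Of the serine, glycine, proline and folate enzymes, 0 of 8 were at least 2-fold higher or lower in H1299 and 4 of 7 were lower in HCT116, with 0 higher and medians of -0.55 and -1.08. MTHFD1L, a mitochondrial folate enzyme, was the lowest in HCT116, at 26.6 and 6.35 CPM with DMSO and DAC+SB, a log2 ratio of -2.07. ALDH18A1 was the lowest in H1299 (-0.72) and ALDH1L2 the highest (0.96), and SHMT1 was the highest in HCT116 (-0.36). When numbered features were left out, ALDH1L2 was at 1.12 in H1299, 1 of the list above 2-fold, and 5 were lower in HCT116. Amino acid transporters were at least 2-fold lower in 2 of 7 cases in H1299 and 4 of 8 in HCT116, with 0 higher and medians of -0.42 and -0.92.

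SLC38A1, a glutamine carrier, was the lowest transporter in both lines, from 93.5 to 32.5 CPM in H1299 and from 93.2 to 11.2 CPM in HCT116, log2 ratios of -1.52 and -3.06. SLC7A1, which carries cationic amino acids, was at -1.22 and -1.78. SLC1A4, a carrier of neutral amino acids, was the highest at 0.21 and 0.81. Aminoacyl-tRNA synthetases were at least 2-fold lower in 0 of 12 cases in H1299 and 4 of 12 in HCT116, with 0 higher and medians of -0.37 and -0.83. YARS was the lowest in H1299 (-0.94) and AARS in HCT116 (-1.54), and SARS was the highest in both, at 0.45 and 0.43. SARS over features without a number was at 1.09 and 1.03, and the list had 1 higher and 1 lower in H1299, with 1 higher and 6 lower in HCT116.

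Other known targets of ATF4 went both ways. In H1299, 1 of 9 was at least 2-fold higher and 1 lower, with a median of 0.15 (2 lower and a median of -0.00 over features without a number). In HCT116 it was 1 and 4 of 10, with a median of -0.15. GDF15, a secreted stress hormone, went from 34 to 454 counts in H1299, or 0.527 to 7.27 CPM, a log2 ratio of 3.79, and was at -0.24 in HCT116. XPOT, the tRNA exporter, was the lowest in both lines at -1.07 and -1.91, and CTH, which makes cysteine, was the highest in HCT116 at 1.20.

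Of the ER chaperone and unfolded protein response genes, 1 of 17 in H1299 and 3 of 17 in HCT116 were at least 2-fold higher, below and near the 18.3% and 16.2% of all genes. None of the 17 was at least 2-fold lower in either line, and the medians were 0.24 and 0.33. Over features without a number the medians were -0.23 and -0.22 and 1 gene was lower in each line, so the sign depended on the numbered features. No median of all genes was computed for that counting, so a shift shared by all genes cannot be told apart. CRELD2, an ER stress gene, was at 1.46 and 1.16, and DNAJB11, an ER co-chaperone, was the highest in HCT116 at 1.57. XBP1 was the lowest in H1299 (-0.96) and PDIA6 in HCT116 (-0.90). Targets of NFE2L2, the antioxidant factor NRF2 that also acts on SLC7A11, had 1 of 7 at least 2-fold higher and 1 lower in each line, with medians of -0.14 and -0.02. Leaving numbered features out, 0 of 6 were higher in either line, 2 were lower in HCT116, and the medians were -0.39 and -0.77. SRXN1 was the highest, at 1.58 and 1.12 (3.35 and 0.08 over those features, with too few counts to enter the 6), GCLM the lowest in H1299 (-1.19) and TXNRD1 in HCT116 (-1.48).

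**Figure D3:**
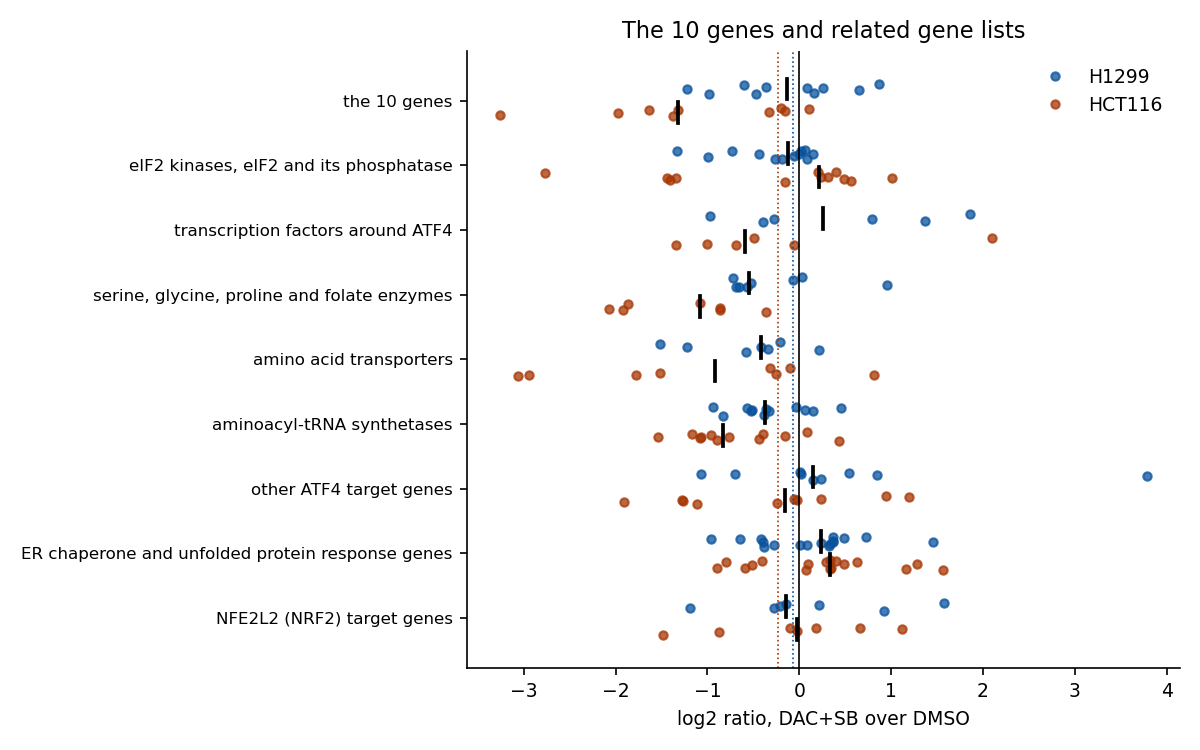
Log2 ratio of DAC+SB over DMSO of each gene that reached 100 counts in 1 or both libraries of a line, for the 10 genes and 8 related lists; black ticks are list medians and dotted lines the median of all genes in H1299 (-0.07) and HCT116 (-0.23). The HCT116 medians of the 10 genes (-1.32), the serine and folate enzymes (-1.08), the transporters (-0.92), the synthetases (-0.83) and the transcription factors around ATF4 (-0.59) lie left of that line.

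To compare cells at equal depth, each cell was thinned at random to 3300 counts, which left out 402 HCT116 DAC+SB cells below that depth and 0 of the other libraries. ATF4 then had a count in 32.5% (31.0 to 34.1, exact Clopper-Pearson interval) of H1299 cells with DMSO and 19.2% (18.0 to 20.5) with DAC+SB, and in 47.6% (46.0 to 49.2) and 23.8% (22.4 to 25.1) of HCT116 cells. Before thinning these were 79.4%, 57.5%, 88.6% and 45.3%. TRIB3 had a count in 10.7% of HCT116 DMSO cells and 1.73% to 2.78% of cells in the other libraries, or 38.9% and 7.30% to 9.90% without thinning.

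DDIT4 had a count in 23.2% of HCT116 DMSO, 9.50% of HCT116 DAC+SB, 2.96% of H1299 DMSO and 3.54% of H1299 DAC+SB cells, or 56.0%, 17.6%, 11.5% and 12.7% without thinning. SLC7A11 had a count in 13 of 3925 HCT116 DAC+SB cells, 0.331% (0.176 to 0.566), against 3.06% with DMSO, and in 1.21% against 2.32% in H1299. VLDLR had a count in 2 of 3658 HCT116 DMSO cells before thinning (0.0547%) and in 39 of 4327 HCT116 DAC+SB cells (0.901%). The share that free RNA alone would give was not measured for any of the 10 genes.

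**Figure D4:**
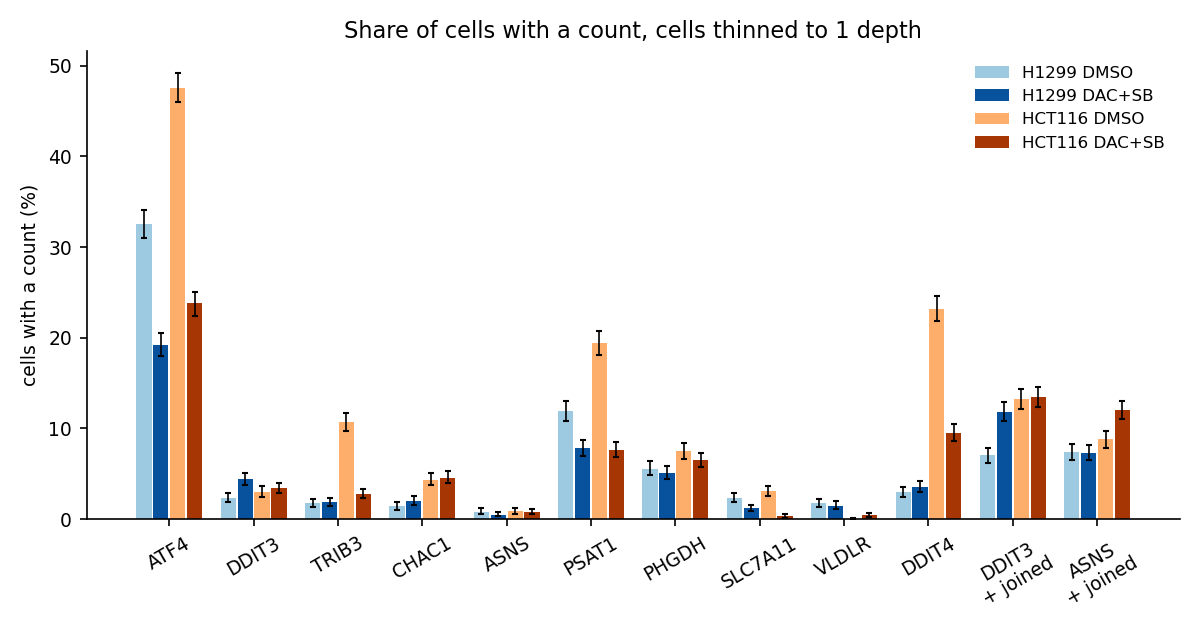
Share of cells with at least 1 count after thinning to 3300 counts per cell, in percent, with exact 95% intervals, for the 10 genes and for DDIT3 and ASNS with joined names. For ATF4, TRIB3, PSAT1 and DDIT4 the tallest bar is HCT116 DMSO (47.6%, 10.7%, 19.4% and 23.2%). It is also the tallest for PHGDH (7.49%), SLC7A11 (3.06%) and ASNS under its own name (0.875%), with intervals that overlap that of another library. DDIT3 with joined names stands at 7.02%, 11.8%, 13.2% and 13.5% in the order of the libraries.

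The variance of thinned counts over their mean lay between 0.995 and 1.40 for 9 genes under their own names, where it could be computed. Counts this sparse hold the ratio near 1, so it does not show an even spread. The highest ratios under own names were those of DDIT4 in HCT116, at 1.75 with DMSO and 1.89 with DAC+SB. DDIT3 with its joined name was at 1.45 (DMSO) and 2.55 (DAC+SB) for H1299, with 1.25 and 2.97 for HCT116. Before thinning, 1 H1299 DAC+SB cell held 84 DDIT3 counts, and the 37 cells with most DDIT3 held 26.7% of all DDIT3 counts in that library.

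Correlations across cells were computed on thinned counts, in which most of the 10 genes had few counts, and low values are not evidence that genes are unrelated. They and the summed count used own names alone, which leaves out most counts at the DDIT3 and ASNS loci. In H1299 DAC+SB, DDIT3 thus had a count in 165 cells, against 440 with its joined name, and ASNS in 19 against 273. Over the pairs of genes with counts, the median Pearson correlation of thinned counts was 0.01 to 0.02 in the 4 libraries and the highest was 0.13. Only H1299 DAC+SB had pairs at 0.1 or above, 4 of 45, a count without a background because pairs of other genes were not computed. There, CHAC1 and SLC7A11 were found together in 7 cells where independence would give 0.906, DDIT3 and DDIT4 in 17 where it would give 5.85, DDIT3 and CHAC1 in 10 where it would give 3.32, and CHAC1 and ASNS in 3 where it would give 0.382. Between the summed count of the 10 genes and a cell's share of transposable element counts, Spearman correlations were -0.01 (DMSO) and -0.07 (DAC+SB) for H1299, with 0.02 and -0.02 for HCT116. Without thinning they were -0.05, -0.10, 0.05 and -0.03. Among 5730 other genes with at least 500 counts in every library, the 8 whose counts went most with the summed count in all 4 libraries were MTHFD2, GAS5, SLC3A2, HERPUD1, IFRD1, HADHB, EIF1 and PIM3. Their lowest correlation in a library was 0.06 for MTHFD2 and 0.03 to 0.05 for the others, which is too weak in counts this sparse to be a finding. The highest single value was 0.16, for HERPUD1 in H1299 DAC+SB. Over all 5730 genes the 99th percentile was 0.05 to 0.07 in the 4 libraries, and the 8 genes were picked for their high values.

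Cells with at least 3 thinned DDIT3 counts, joined name included, were picked after the values were seen and are described without a test. There were 7 of 3578 (DMSO) and 36 of 3726 (DAC+SB) among H1299 cells, with 9 of 3658 and 40 of 3925 among HCT116 cells, and they held 9.74%, 25.6%, 5.90% and 23.7% of thinned DDIT3 counts. These cells were near the others in median depth, at 15178 against 15789 counts in H1299 DAC+SB and 9766 against 9151 in HCT116 DAC+SB. Their median mitochondrial share was 7.39% against 8.88% and 12.9% against 17.9%.

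In the 36 H1299 DAC+SB cells, several other genes of the response were at higher levels than in the remaining cells of that library. CHAC1 was at 91.9 CPM against 6.76, ASNS with its joined name at 269 against 25.7, DDIT4 at 85.1 against 9.85, SLC7A11 at 37.5 against 3.25 and ATF4 at 146 against 65.7. HERPUD1, an ER quality control gene, was at 242 against 21.2 CPM. The 9 cells with at least 5 thinned DDIT3 counts held 38 of the 54 CHAC1 counts, 136 of 158 ASNS, 44 of 50 DDIT4, 20 of 22 SLC7A11 and 116 of 142 HERPUD1 counts, but 39 of 86 ATF4 counts. The most counts in 1 cell were 75 for ASNS, 24 for DDIT4 and 63 for HERPUD1. CHAC1 was found in 11 of the 36 cells and SLC7A11 in 7. VLDLR was at 5.11 against 4.11 CPM from 3 counts, too few to tell the cells apart (log2 ratio 0.31, interval -1.97 to 1.88).

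In the 40 HCT116 DAC+SB cells, DDIT4 was at 171 CPM against 30.7, CHAC1 at 50.6 against 14.3, ASNS with its joined name at 89.2 against 41.8 and ATF4 at 215 against 87.1. For PSAT1 and PHGDH the log2 ratios were 0.63 (-0.19 to 1.33) and 0.68 (-0.20 to 1.43), with intervals that span 0. In the 9 HCT116 DMSO cells the intervals of ATF4 and the other genes of the 10 with a count spanned 0. In the 7 H1299 DMSO cells, ATF4 was at 238 CPM against 131, ASNS with its joined name at 238 against 28.7 and CHAC1 at 79.4 against 4.64, the last from 11 counts in 3 cells. Few cells gave these counts: the 3 cells with at least 5 thinned DDIT3 counts held 31 of 33 ASNS, 21 of 33 ATF4, 8 of 11 TRIB3 and 8 of 12 PSAT1 counts, with up to 18 ASNS and 13 ATF4 counts in 1 cell. The intervals treat counts within a cell as independent, so they are too narrow where 1 cell holds many.

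**Figure D5:**
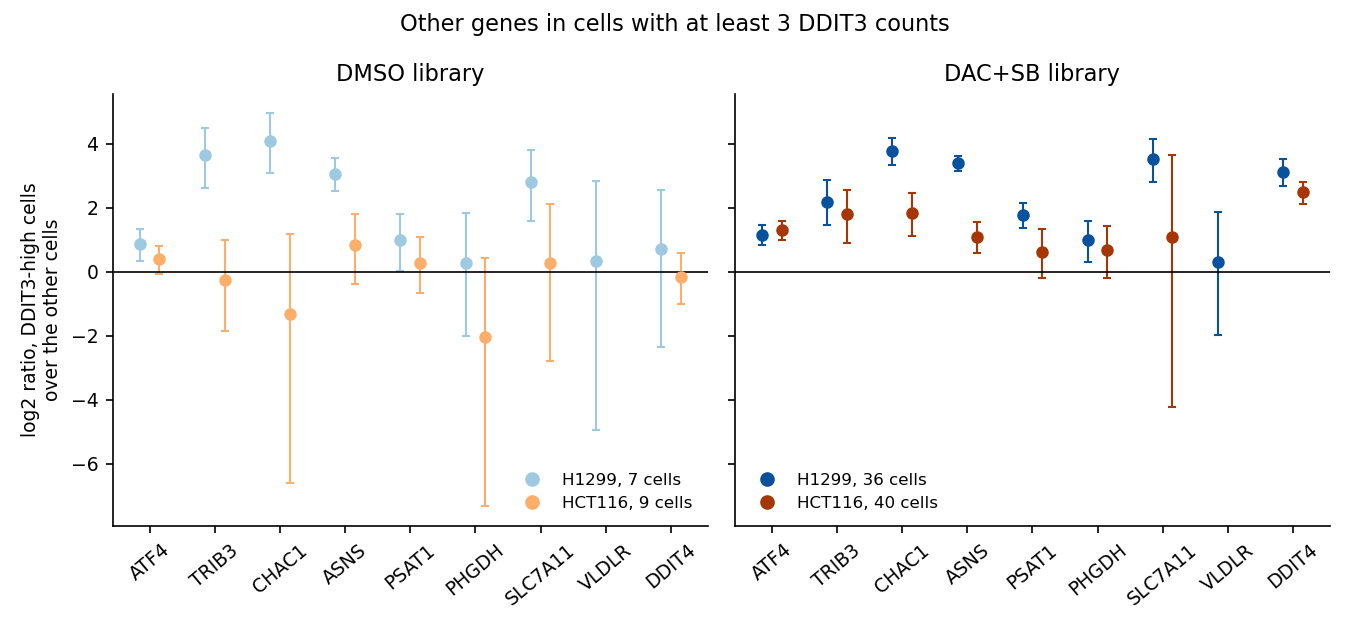
Log2 ratio of each of the other 9 genes in cells with at least 3 thinned DDIT3 counts over the remaining cells of the same library, with exact 95% counting intervals; DMSO libraries on the left, DAC+SB on the right. In H1299 DAC+SB (36 cells), CHAC1, ASNS, SLC7A11 and DDIT4 lie above 3 on the log2 scale, and in HCT116 DAC+SB (40 cells) DDIT4 is the highest, at 2.48.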

How the data were processed

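Per the file contents, the authors deposited whole-number counts per gene feature and per transposable element feature in each cell, with the library named in the cell name. CASAVA and STAR, and the builds GRCh38 and hg38, are named in the submitters' processing notes without versions or roles; the counting tool, the cell filter, and whether the deposited counts are unique molecular identifier counts are not stated in any source at hand. Counts were summed per gene name and library over all 15289 cells and divided by gene plus transposable element counts (Python 3.11.15, pandas 2.3.3, numpy 2.4.6, scipy 1.17.1). Names that join several genes (2419 names, 11.4% to 18.3% of gene counts) were left out and added in an alternative. Numbered features run from 1 without a gap for every name in every library and start at 10 counts, so the same number need not mark the same place in 2 libraries, and an unlisted one is not a 0; features without a number were therefore also used alone. A gene was compared where 1 or both libraries of a line reached 100 counts. No doublet caller was run. Cells were thinned without replacement to 3300 counts (10th percentile of depth in the shallowest library, rounded down); the cells with most DDIT3 come from a second draw. On simulated independent Poisson counts with 200 changed genes, 95% ratio intervals held the true value for 95.5% of 13634 genes in the H1299 design and 95.4% of 12618 in the HCT116 design. The intervals assume such counts. This therefore checks the calculation only, and says nothing about real counts that gather in single cells.

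The 10 genes and the lists were chosen with earlier results of these data known. Of the other lists, a gene is named where its log2 ratio is at least 1 in size in both lines, or is the highest or lowest of its list in a line. Genes of the cells with most DDIT3 were named after their values were seen.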

Additional observations from a re-analysis of the deposited data

Results flagged for a closer look

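For 3 of the 10 genes the 2 lines had log2 ratios of DAC+SB over DMSO of opposite sign with counting intervals that exclude 0. The share of all genes that meet this rule was not computed, so the count has no background. With 1 library per group the difference was not tested. CHAC1 was at 0.65 in H1299 and -0.16 in HCT116, where the value moved between -0.78 and 0.08 over the alternatives. VLDLR was at -0.47 in H1299 and 4.56 in HCT116, the latter from 3 counts with DMSO and 44 with DAC+SB. DDIT4 was at 0.26 in H1299 and -1.64 in HCT116.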

How the results depend on the processing

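Each group was 1 library, so no library could be left out. Within a line no test was possible because each line has 1 library per treatment. A fit over both lines with the line as a term, which would pair the libraries by line, was not run. Of 20 log2 ratios (10 genes in 2 lines), all 20 stayed on their side of 2-fold under all alternatives run and 17 kept their sign; the exceptions, all in HCT116, were ASNS (-0.28 to 0.55), CHAC1 (-0.78 to 0.08) and PHGDH (-0.36 to 0.14). The cause was not tested for any value below, beyond the lower or higher threshold where one was set.

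At a 1.5-fold threshold, 2 of the 10 genes were higher and 3 lower in H1299, where 3636 (24.9%) of 14610 genes were higher and 3106 (21.3%) lower. In HCT116, 4762 (35.2%) of 13539 genes were lower. At 4-fold, 0 of the 10 were lower in H1299 and 1 in HCT116. Of all genes, H1299 had 1612 (11.0%) higher and 51 (0.349%) lower, and HCT116 had 1304 (9.63%) and 500 (3.69%). With a minimum of 10 counts, 7277 genes were at least 2-fold higher and 1832 lower in H1299 and 6747 higher in HCT116. A minimum of 1 count gave 10771 and 5441 for H1299, 12255 and 4142 for HCT116. Centring on the median of all genes put the HCT116 median of the 10 genes at -1.09, and the HCT116 split of all genes at 2611 higher and 1865 lower, against 2192 and 2706. Over features without a number, chosen after seeing the data, 1200 genes were higher and 3035 lower in HCT116, or 1207 and 3074 with joined names, and 1886 and 1241 in H1299 against 2673 and 1072. Of all values of these kinds, 20 were classed as moved and 104 as not, some of the latter given above. The limit was 1.5 times for counts of genes and the interval for single ratios and shares. Among the 104 was the H1299 median of the 10 genes, though it went from -0.14 to 0.01 with joined names and to -0.07 with centring. Of the single genes' ratios and cell shares 71 moved and 174 did not, and no sign of a called ratio turned. Shares of cells depend on depth, and genes with few counts in HCT116 DAC+SB (SLC7A11 and VLDLR, 44 counts each) are limited by it.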

Other observations

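In the 40 HCT116 DAC+SB cells with most DDIT3, PPP1R15A (GADD34, which returns the eIF2 phosphatase to its substrate) was at 229 CPM against 78.9 in the remaining cells, and SLC3A2, the partner chain of SLC7A11, at 234 against 76.3. Of the 97 SLC3A2 counts 24 lay in 1 cell, and 1 cell held up to 9 of the 95 PPP1R15A counts. In the 36 H1299 DAC+SB cells, ATF3 was at 129 CPM against 22.7 and HSPA5 (BiP, the main ER chaperone) at 407 against 92.8. Of these counts, 60 of 76 for ATF3 and 153 of 239 for HSPA5 lay in the 9 of these cells with at least 5 thinned DDIT3 counts, with up to 27 and 91 in 1 cell. GDF15, which had a log2 library ratio of 3.79 in H1299, was at 6.81 against 7.28 CPM. Its 4 counts in the 36 cells were too few to tell the cells apart (log2 ratio -0.10, interval -1.98 to 1.27). In the 40 HCT116 DAC+SB cells GDF15 was at 33.8 against 8.73 CPM, from 14 counts in 5 cells (log2 ratio 1.95, interval 1.06 to 2.72).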
